A study of Mus musculus with 6 samples.

Results

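The Ms4a genes encode small membrane proteins related to CD20 of B cells, and in the mouse they lie side by side on chromosome 19. They were taken as the rows of the deposited expression table whose symbol starts with Ms4a, which gave 10 genes of 12161 in all. The family was picked with its values in the comparison below already known, so its differences are given as a description, and limma calls of its members only as counts from which nothing is read. The cells were LSK cells, a bone marrow fraction rich in blood stem cells and early progenitors that lacks lineage markers and carries Sca1 and Kit. They came from wild-type C57BL/6 mice and received one of 2 retroviruses. MIG-Hhex carries Hhex, a homeobox transcription factor of early blood and endothelial cells, and MIG is the same vector without it. Each group has 3 libraries, of replicates WT3, WT691 and WT703. All cells, with either vector, grew for 2 days with IL-6 and IL-3 (written mL-3 in the labels) at 10 ng/mL, plus mFlt-3 and stem cell factor at 50 ng/mL, and RNA was taken from those that sorted positive for GFP. The labels call the replicates biological and do not tie them to animals, so p-values measure the spread between these libraries only. They place both WT3 libraries on flow cell C3RJFACXX and the other 4 on C5LWPANXX.

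Ms4a proteins cross the membrane several times and lack enzyme activity of their own. Several sit beside immune receptors and change how these signal. Ms4a2 is the beta chain of the high-affinity IgE receptor of mast cells and basophils. Ms4a3 marks granulocyte-monocyte progenitors in mouse bone marrow, and its human counterpart HTm4 binds a phosphatase of cyclin-dependent kinases. Ms4a4b is known from mouse T cells, where it associates with the receptor GITR. Ms4a4a and Ms4a7 are best known from macrophages, as is Ms4a6d.

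The libraries have medians between 3.56 and 3.60 on the deposited log2 scale, and their depth is unknown. Hhex itself had log2 values of 7.61, 9.34 and 9.06 in the MIG-Hhex libraries of WT3, WT691 and WT703, and 5.18, 5.05 and 5.13 in the MIG libraries (log2 fold change 3.55, SE 0.32, limma adjusted p = 0.00189). Kit, Ly6a and the proteases below were looked up after their values were seen. Kit averaged 4.56 ± 0.19 with MIG-Hhex and 4.73 ± 0.12 with MIG (log2 level, SD, n = 3 each). Ly6a, which encodes Sca1, was at 3.55, 6.21 and 5.89 with MIG-Hhex and at 3.18, 6.25 and 6.08 with MIG, so it was low in both WT3 libraries. The LSK label refers to the sort before culture. After it, the neutrophil protease genes Elane, Prtn3 and Ctsg had mean log2 levels of 9.97, 10.23 and 10.00 with MIG-Hhex and 10.11, 10.35 and 10.42 with MIG.

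In the RefSeq table of GRCm38.p6 the family has 21 genes on chromosome 19, and the 10 measured ones run from Ms4a8a at 11067471 to Ms4a3 at 11640851, a span of 573.4 kb. The other 11, among them Ms4a1, which encodes CD20, are not analysed here. RefSeq promoter sequence, 250 bases before to 50 bases after an annotated start, was matched for 9 of the 10 genes, with 10 windows because Ms4a7 has 2 starts. The starts used for Ms4a4c, Ms4a6c and Ms4a2, and the inner start of Ms4a7, lie inside the gene as the RefSeq table gives it. There Ms4a4c begins at 11404717 and Ms4a6c at 11469353, and Ms4a2, on the minus strand, begins at 11623790. Pairs of close paralogs are shown first, since they bear on how far the genes can be read as separate measurements. The windows of Ms4a4c (chr19:11407411-11407710, plus strand) and Ms4a4b (chr19:11443308-11443607, plus strand) were 72.9% identical over their alignment, against a median of 47.5% over 44 pairs of windows. Capitals mark GAGGAA, a core that the myeloid ETS factor PU.1 binds, which begins 61 bases before the start in Ms4a4c and 64 bases before it in Ms4a4b, and in Ms4a4c also ACCACA, the reverse complement of the RUNX core TGTGGT.
Ms4a4c: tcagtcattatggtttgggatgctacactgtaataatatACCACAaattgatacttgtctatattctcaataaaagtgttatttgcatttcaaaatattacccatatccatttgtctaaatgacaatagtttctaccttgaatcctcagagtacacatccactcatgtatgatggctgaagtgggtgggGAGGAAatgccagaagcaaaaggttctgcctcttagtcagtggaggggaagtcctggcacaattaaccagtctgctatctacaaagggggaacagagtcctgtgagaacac
Ms4a4b: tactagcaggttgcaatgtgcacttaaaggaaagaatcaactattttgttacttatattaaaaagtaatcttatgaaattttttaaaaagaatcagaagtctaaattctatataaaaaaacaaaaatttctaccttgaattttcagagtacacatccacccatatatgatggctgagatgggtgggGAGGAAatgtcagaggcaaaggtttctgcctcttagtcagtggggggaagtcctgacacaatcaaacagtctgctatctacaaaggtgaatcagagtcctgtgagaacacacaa

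The windows of Ms4a6c (chr19:11469118-11469417, plus strand) and Ms4a6b (chr19:11518309-11518608, plus strand) share an unbroken run of 48 bases, shown in capitals. It lies nearer to the start in Ms4a6c, where it begins 49 bases before it, than in Ms4a6b, where it begins 118 bases before it.
Ms4a6c: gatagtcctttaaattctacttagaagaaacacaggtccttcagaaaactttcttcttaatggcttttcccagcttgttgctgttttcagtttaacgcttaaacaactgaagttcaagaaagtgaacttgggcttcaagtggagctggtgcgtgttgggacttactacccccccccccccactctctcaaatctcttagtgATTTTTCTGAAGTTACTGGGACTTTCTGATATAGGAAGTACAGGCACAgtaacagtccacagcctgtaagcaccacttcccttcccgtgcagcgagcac
Ms4a6b: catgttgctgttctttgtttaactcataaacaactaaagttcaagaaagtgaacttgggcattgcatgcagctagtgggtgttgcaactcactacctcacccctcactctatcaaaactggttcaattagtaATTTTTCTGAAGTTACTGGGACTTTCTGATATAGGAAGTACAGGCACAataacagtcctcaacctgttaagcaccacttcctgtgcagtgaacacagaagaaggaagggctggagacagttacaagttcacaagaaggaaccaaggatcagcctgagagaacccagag

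The neighbours Ms4a3 (chr19:11640802-11641101, minus strand) and Ms4a2 (chr19:11623670-11623969, minus strand) are shown because they are the best characterised progenitor and mast cell genes of the family and differ in motif content. Capitals mark GAGGAA directly followed by the C/EBP core TTGCNNAA in Ms4a3, both after the start, and the GATA core AGATAA, on either strand, in Ms4a2. As said above, the start used for Ms4a2 lies inside the gene.
Ms4a3: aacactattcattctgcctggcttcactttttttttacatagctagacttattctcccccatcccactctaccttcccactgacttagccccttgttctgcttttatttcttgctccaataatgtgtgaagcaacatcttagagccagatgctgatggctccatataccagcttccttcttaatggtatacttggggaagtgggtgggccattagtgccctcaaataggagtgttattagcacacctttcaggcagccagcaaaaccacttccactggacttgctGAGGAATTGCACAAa
Ms4a2: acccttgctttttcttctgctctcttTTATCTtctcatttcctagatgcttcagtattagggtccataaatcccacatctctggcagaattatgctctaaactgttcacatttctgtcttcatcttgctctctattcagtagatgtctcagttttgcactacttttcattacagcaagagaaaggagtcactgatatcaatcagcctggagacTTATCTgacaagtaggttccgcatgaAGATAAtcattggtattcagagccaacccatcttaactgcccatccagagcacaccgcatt

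On either strand, GAGGAA was found in 4 of the 10 windows, against 28.3% of 32851 promoter windows of the same length. TTGCNNAA was found in 1 window (10.8% of all), AGATAA in 1 (11.2%) and TGTGGT in 1 (16.8%). The window of Ms4a2 held AGATAA 3 times, a count of 3 or more being found in 35 of all windows (0.107%). This cut was set by the count in Ms4a2 itself, and for this motif only, so nothing is read from that share. ATTAA, a core common to homeobox factors that is left in lower case above, was found in 6 of the 10 windows and in 27.1% of all. The 10 windows held 31.7% to 47.7% G and C, and the share over all windows was not matched for this. The windows of Ms4a4c and Ms4a4b, both with a match, are close in sequence, so the matches are not independent. Whether ATTAA is more frequent than base content alone gives was not tested. A match describes letters and is not a binding site.

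Across the 10 genes, all log2 values were lower in the MIG-Hhex library than in the MIG library of the same replicate, in each of the 3 pairs. The same held for 32.3% of all genes. In 8 of the 10, every MIG-Hhex library lay below every MIG library, as in 11.0% of all genes. The exceptions were Ms4a4c and Ms4a6b. The median log2 fold change of the family was −1.97, and that of all genes −0.02. By limma, 9 of the 10 passed the adjusted threshold of 0.05 in the lower direction, against 8.52% of all genes, and 0 in the higher direction, against 9.44%. Ms4a4c was the one that did not pass. Because the family was chosen on this comparison, nothing is read from these counts. With the replicate block in place of the flow cell term 10 passed, against 1473 of all 12161 genes in the same direction. Without a flow cell term 0 passed, against 98 of all genes. At an unadjusted p under 0.05, by limma, 9 were lower in that fit, against 872 of all genes. Without the MIG library of WT703 4 passed, against 357 of all genes. Nothing is read from these counts either. In bulk RNA, fewer cells of a type and less RNA per cell cannot be told apart.

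**Figure D1:**
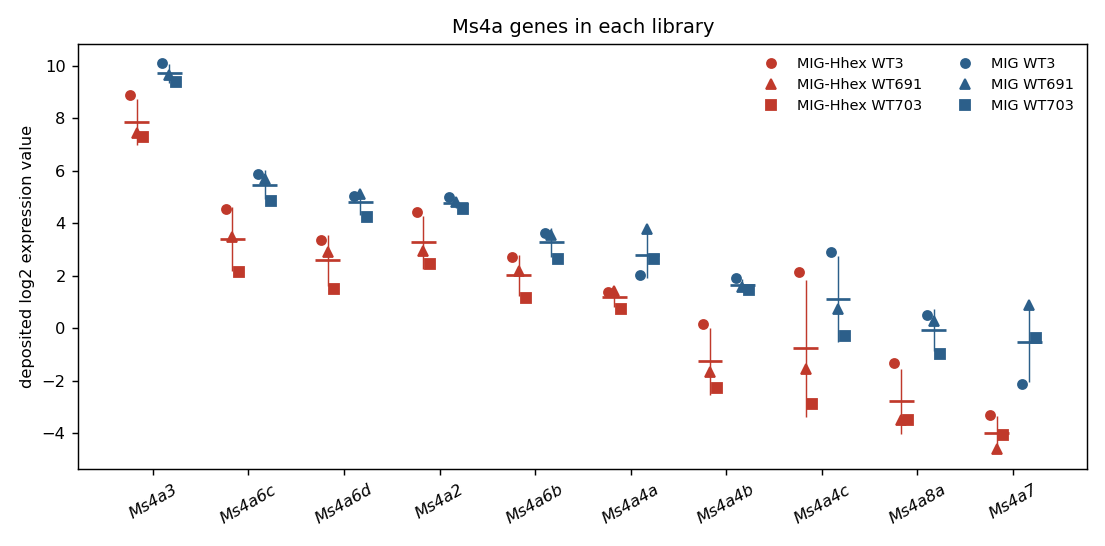
Deposited log2 expression value (y axis) of the 10 Ms4a genes in each library, MIG-Hhex in red left of MIG in blue; symbols give the replicate, horizontal lines the mean and vertical lines 1 SD over 3 libraries. Ms4a3 stands far above the rest in both groups, and the groups overlap for Ms4a4c and Ms4a6b.

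Ms4a3 was by far the most abundant member. Its log2 values were 8.88, 7.44 and 7.27 with MIG-Hhex in WT3, WT691 and WT703, against 10.09, 9.65 and 9.37 with MIG. All MIG-Hhex values lay below all MIG values, and among them WT3 lay nearest to MIG. The log2 fold change was −1.84 (SE 0.20), or 3.58-fold lower with MIG-Hhex, the smallest standard error in the family. Per unit of length, Ms4a3 still ranked above 97.8% of all genes with MIG-Hhex, and above 99.6% with MIG. The next member, Ms4a6c, averaged 3.39 ± 1.21 with MIG-Hhex and 5.47 ± 0.56 with MIG (log2 level, SD, n = 3 each), and in neither group did the ranges of these genes meet.

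Ms4a2, the IgE receptor beta chain, had log2 values of 4.41, 2.95 and 2.44 with MIG-Hhex, against 4.99, 4.81 and 4.55 with MIG. The groups did not overlap, and the MIG values lay within a narrower range than the MIG-Hhex values. The log2 fold change was −1.52 (SE 0.30, 2.87-fold lower with MIG-Hhex). The other subunits of the receptor were looked up after the values were seen. Fcer1a, the IgE-binding alpha chain, had log2 values of 2.29, −0.24 and −2.49 with MIG-Hhex and 3.62, 2.24 and 0.76 with MIG, with overlapping groups (log2 fold change −2.35, SE 0.68, limma adjusted p = 0.0597). Fcer1g, the gamma chain shared with other Fc receptors, averaged 6.72 ± 0.56 with MIG-Hhex and 6.98 ± 0.59 with MIG (SD, n = 3 each; log2 fold change −0.26, SE 0.09, limma adjusted p = 0.0951). Neither passed the threshold in this fit, and both passed as lower with the replicate block (limma adjusted p = 0.00734 for Fcer1a and 0.0125 for Fcer1g). Both also passed without replicate WT691 (limma adjusted p = 0.0377 and 0.0404), and Fcer1a passed without replicate WT703 (0.042) and with an offset of 1 (0.0293). Their differences were not compared with that of Ms4a2.

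Among the Ms4a6 genes, Ms4a6c and Ms4a6d were the higher pair. Ms4a6c had log2 values of 4.55, 3.48 and 2.14 with MIG-Hhex, against 5.89, 5.67 and 4.84 with MIG (log2 fold change −2.07, SE 0.41). Ms4a6d had log2 values of 3.37, 2.91 and 1.48 with MIG-Hhex, against 5.04, 5.11 and 4.25 with MIG (log2 fold change −2.22, SE 0.41). In both genes the WT703 library was lowest in each group and the groups did not overlap. Ms4a6b had log2 values of 2.70, 2.17 and 1.16 with MIG-Hhex, against 3.64, 3.55 and 2.62 with MIG. Here the WT3 library with MIG-Hhex lay above the WT703 library with MIG, so the groups overlapped although each pair differed in the same direction. Its log2 fold change of −1.26 (SE 0.33, 2.39-fold lower with MIG-Hhex) was the smallest in the family.

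The Ms4a4 genes averaged lower than every Ms4a6 gene in both groups. Ms4a4a, known from macrophages, had log2 values of 1.38, 1.43 and 0.73 with MIG-Hhex, against 2.01, 3.79 and 2.62 with MIG, without overlap (log2 fold change −1.62, SE 0.42). It was 1 of 2 members, with Ms4a7, whose WT3 library was the lowest of the MIG group. Ms4a4b had log2 values of 0.16, −1.65 and −2.29 with MIG-Hhex, against 1.91, 1.55 and 1.45 with MIG, a wide gap from values that hardly varied within MIG (log2 fold change −2.90, SE 0.39, 7.44-fold lower with MIG-Hhex). Ms4a4c had log2 values of 2.16, −1.57 and −2.89 with MIG-Hhex, against 2.89, 0.74 and −0.31 with MIG. Both WT3 libraries were far above the other 4 on this gene, and its SD within a group, 2.62 with MIG-Hhex and 1.63 with MIG, was the largest in the family. The log2 fold change was −1.88 (SE 0.52).

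Ms4a7 and Ms4a8a had the lowest mean levels of the family in both groups. Ms4a7 had log2 values of −3.30, −4.60 and −4.07 with MIG-Hhex, against −2.12, 0.88 and −0.38 with MIG, and the largest fitted difference of the family (log2 fold change −3.45, SE 0.78). Its difference was −1.18 in the WT3 pair and −5.49 in the WT691 pair. Ms4a8a, described in alternatively activated macrophages, had log2 values of −1.34, −3.51 and −3.51 with MIG-Hhex, against 0.52, 0.26 and −0.99 with MIG (log2 fold change −2.71, SE 0.45). Its WT691 and WT703 values with MIG-Hhex were identical and may be a floor for this gene. They are not a floor of the scale, since the lowest values in these libraries were −7.146 and −7.555. The size of the fitted difference of Ms4a8a may then depend on a floor for the gene, which was not tested. With MIG-Hhex, 1.54% of all genes averaged lower than Ms4a8a and 0.378% lower than Ms4a7, and with MIG these shares were 12.0% and 9.48%. The size of such differences depends on the unstated offset of the log2 values. With 1 added on the linear scale before the log, a setting under which Ms4a3 stayed at −1.84, they became −0.76 for Ms4a8a, −0.78 for Ms4a7, −0.77 for Ms4a4c and −1.46 for Ms4a4b.

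By mean log2 level the order with MIG-Hhex was Ms4a3, Ms4a6c, Ms4a2, Ms4a6d, Ms4a6b, Ms4a4a, Ms4a4c, Ms4a4b, Ms4a8a and Ms4a7. With MIG it was Ms4a3, Ms4a6c, Ms4a6d, Ms4a2, Ms4a6b, Ms4a4a, Ms4a4b, Ms4a4c, Ms4a8a and Ms4a7. With MIG-Hhex only Ms4a3 was separated from its neighbour in the order, all other adjacent genes having overlapping ranges. With MIG, gaps without overlap also lay between Ms4a2 and Ms4a6b and between Ms4a4a and Ms4a4b. These levels are per unit of gene length as far as the values show.

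**Figure D2:**
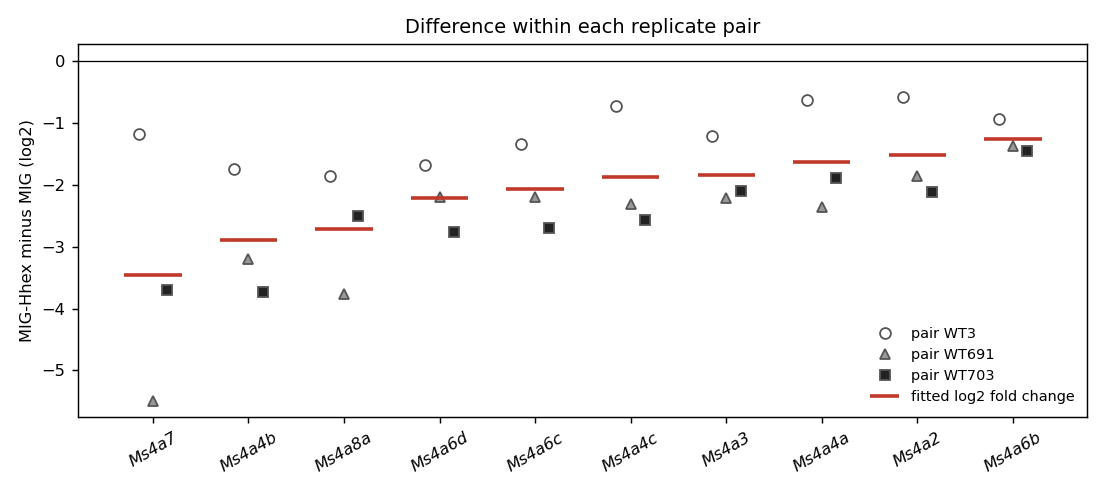
Difference in log2 value, MIG-Hhex minus MIG, within each replicate pair (symbols) and the fitted log2 fold change (red line) of the 10 Ms4a genes, ordered by the fitted value. All points lie below 0, and the WT3 pair (open circles) is nearest to 0 in all 10 genes.

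The WT3 pair differed least in all 10 genes. The median difference of the family was −1.20 in the WT3 pair, −2.26 in the WT691 pair and −2.54 in the WT703 pair, while the median over all genes was −0.02, −0.03 and −0.02. Hhex was raised by 2.43 in the WT3 pair, 4.29 in the WT691 pair and 3.93 in the WT703 pair. WT3 was also the single replicate on its flow cell, so replicate, flow cell and Hhex level cannot be told apart here. The largest difference lay in the WT703 pair for 6 genes and in the WT691 pair for 4.

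Reads of near-identical paralogs may have been shared between rows. Among the 45 pairs of members, identity of aligned coding bases was highest between Ms4a4c and Ms4a4b, at 91.7%, and their transcripts hold an identical run of 127 bases. Ms4a6c and Ms4a6b were 87.5% identical with a run of 96 bases, Ms4a6b and Ms4a6d 81.9% with 81, and Ms4a6c and Ms4a6d 79.1% with 44. Ms4a4b and Ms4a2, the least alike pair in coding bases at 55.5%, have transcripts with an identical run of 112 bases. The labels give reads of 50 or 100 bases, and 4 pairs share a run of at least 50 bases, 2 of them one of at least 100. Over all pairs the median was 60.4%. The values of Ms4a4b, Ms4a4c, Ms4a2 and the 3 Ms4a6 genes are therefore uncertain as separate measurements. Ms4a3, Ms4a4a, Ms4a7 and Ms4a8a share no run longer than 19 bases with any other measured member. In MIG cells, Ms4a4b varied little, with an SD of 0.24, and Ms4a4c varied widely, with an SD of 1.63.

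**Figure D3:**
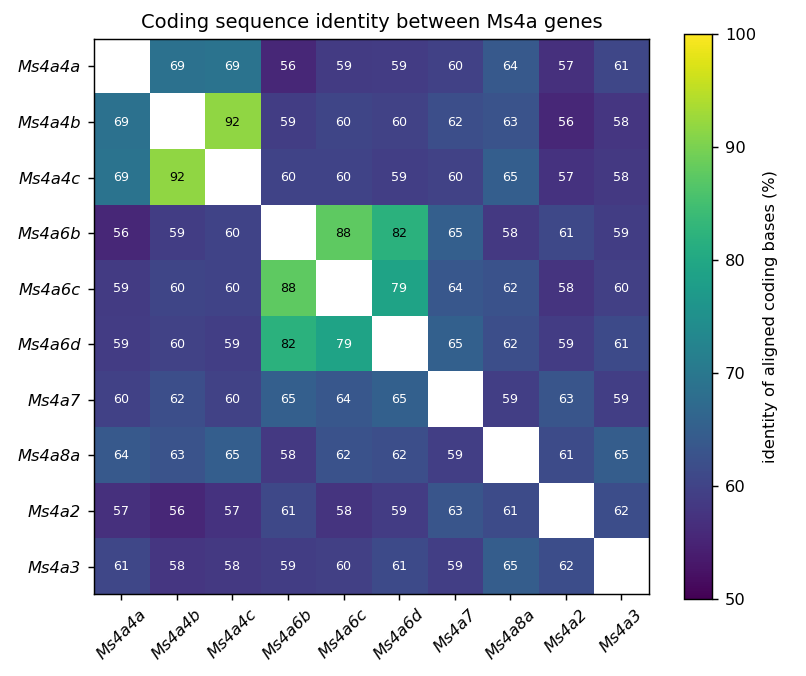
Identity of aligned coding bases (percent, colour and number) between the 10 measured Ms4a genes, from GENCODE M21 transcripts. Ms4a4b with Ms4a4c, at 91.7%, and the 3 Ms4a6 genes, at 79.1% to 87.5%, stand out from a median of 60.4%.

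Genes around the family were compared next, which the choice of members did not use. Within 500 kb of either end of the measured span, 17 of 36 protein-coding genes outside the family were measured. Of these, 6 rose, 2 fell and 9 did not pass the threshold, beside 9.44% of all genes higher and 8.52% lower. Their median log2 fold change was 0.06, against −0.02 over all genes. On the Ms4a8a side, Cd6, a T cell coreceptor, rose 12.1-fold (log2 fold change 3.60, SE 0.30, limma adjusted p = 0.00162). Its log2 values were 1.69, 2.40 and 1.62 with MIG-Hhex, against −2.56, −1.23 and −1.32 with MIG. Slc15a3, a lysosomal peptide and histidine transporter, rose 7.79-fold (log2 fold change 2.96, SE 0.37, limma adjusted p = 0.00483). Tmem132a rose by 1.80 on the log2 scale (SE 0.27) and Tmem109 by 0.51 (SE 0.05). Slc15a3 and Tmem132a overlap at their ends in the annotation, so reads there may be shared. Cd5, a T and B cell regulator that neighbours Cd6, rose by 2.88 (SE 0.73, limma adjusted p = 0.0414), a call lost without replicate WT3, without WT703 and in 4 of 6 runs without a single library (adjusted p up to 0.133). The mean log2 level of Cd5 with MIG was −2.72, and Cd6 was also low there, so the size of both rises depends on the unstated offset. Cyb561a3, which overlaps its neighbours, rose by 0.61 (SE 0.11), a call lost without WT3, in both runs without a WT3 library and without the MIG library of WT703 (limma adjusted p up to 0.0557). The nearest measured gene on this side, Ccdc86 at 118.2 kb from Ms4a8a, fell by 0.24 (SE 0.05, limma adjusted p = 0.0246), and missed the threshold in all 9 runs that left out a replicate or a library (up to 0.115).

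On the Ms4a3 side the nearest gene was Oosp1, which is named for a protein secreted by oocytes and starts 26.6 kb beyond Ms4a3. Its log2 fold change of −1.52 (SE 0.28) passed, with a limma adjusted p of 0.0166. Its log2 values were 0.69, −1.28 and −0.52 with MIG-Hhex, against 1.71, 0.67 and 1.06 with MIG, so the WT3 library with MIG-Hhex lay just above the lowest MIG value. Leaving out replicate WT703 ended the call (limma adjusted p = 0.0682), as did leaving out its MIG library (limma adjusted p = 0.0658). The 4 genes beyond it, Mrpl16, Stx3, Patl1 and Osbp, did not pass. All 6 rises lay on the Ms4a8a side, 185.7 kb or more from that gene. Without a flow cell term the calls of Cd6 and Slc15a3 remained, and the other 6 neighbours lost theirs (limma adjusted p 0.0558 to 0.379).

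**Figure D4:**
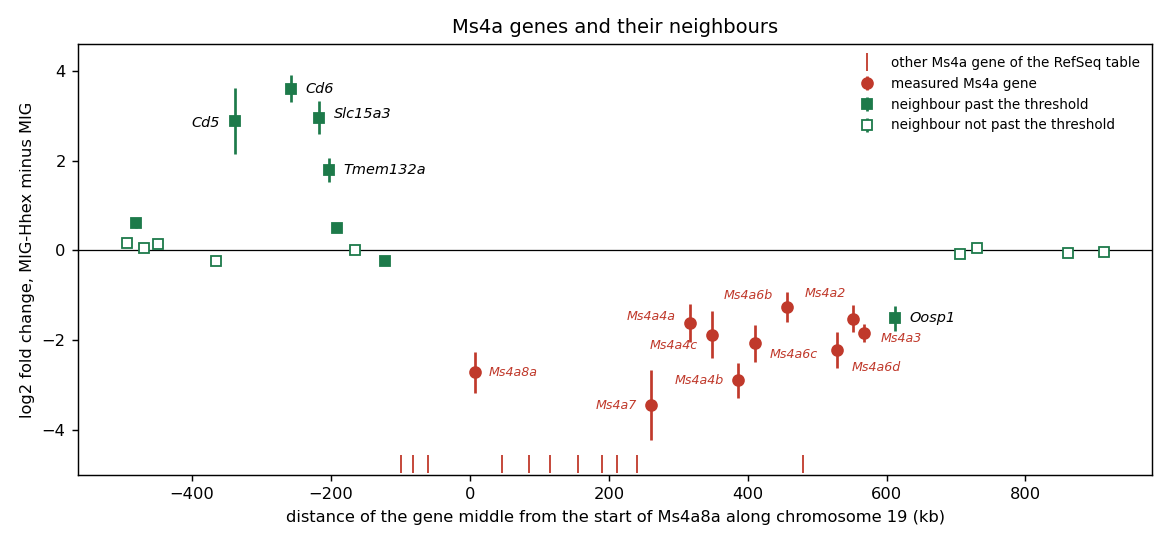
Log2 fold change (MIG-Hhex minus MIG, bars 1 SE) against distance along chromosome 19 from the start of Ms4a8a in kb, for measured Ms4a genes (red) and other measured protein-coding genes within 500 kb (green, filled where past the threshold); ticks mark Ms4a genes not analysed here. The 10 Ms4a genes and Oosp1 lie at −1.26 or lower, while Cd5, Cd6, Slc15a3 and Tmem132a lie at 1.80 or higher.

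Genes whose products work with or resemble the family were read from lists, beside a background of 9.44% of all genes higher and 8.52% lower. Of 16 genes of the IgE receptor and its signalling, 2 rose, 1 fell and 13 missed the threshold (median log2 fold change 0.06). Syk, the kinase recruited to the receptor, rose by 0.69 (SE 0.10, limma adjusted p = 0.00781) and the phospholipase Plcg2 by 0.30 (SE 0.05), but the Plcg2 call ended without replicate WT703 (limma adjusted p = 0.087). The adaptor Gab2 fell by 0.40 (SE 0.09), and its call was lost in all 9 runs (largest limma adjusted p 0.126). Of 10 described partners and relatives, 2 rose and 2 fell while 6 missed the threshold (median 0.05). The tetraspanins Cd53 and Cd37, leukocyte membrane proteins of another family, fell by 1.97 (SE 0.09, limma adjusted p = 0.000528) and by 1.64 (SE 0.12, limma adjusted p = 0.00118). Other tetraspanins did not fall in this way. Cd81 of the same list did not pass (log2 fold change −0.09, limma adjusted p = 0.558), and Cd9 of the megakaryocyte list rose by 1.46. Tnfrsf18, which encodes the Ms4a4b partner GITR, rose by 0.92 (SE 0.12, limma adjusted p = 0.00604). Cdk2 rose by 0.25 (SE 0.06, limma adjusted p = 0.0349), a call lost in 6 of 9 left-out runs. Tmem176a and Tmem176b, distant relatives of the family chosen after their values were seen, differed by 0.26 and 0.21 on the log2 scale, short of the threshold (limma adjusted p = 0.0731 and 0.0640), though Tmem176a passed without the MIG-Hhex library of WT703 (0.039). Without a flow cell term Tnfrsf18, Cd53 and Cd37 remained past the threshold. Syk, Plcg2, Gab2 and Cdk2 did not (limma adjusted p = 0.218, 0.628, 0.245 and 0.241). With the replicate block 3 genes of the IgE receptor list were lower, against 1.

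Markers of the cell types in which Ms4a genes are known moved both ways. Of 14 granulocyte-monocyte progenitor genes, 2 rose and 2 fell while 10 missed the threshold (median log2 fold change −0.13). Mpo, the myeloperoxidase, fell by 3.12 (SE 0.50) and Serpinb1a, an elastase inhibitor, by 1.59 (SE 0.21), while the transcription factor Irf8 rose by 0.54 (SE 0.06). Haptoglobin, Hp, rose by 0.77 (SE 0.18), a call lost in 5 of 9 runs (largest limma adjusted p 0.111). The summed log2 level of this list lay between 12.1 and 13.08 with MIG-Hhex and between 12.63 and 13.39 with MIG. Of 19 measured monocyte and macrophage genes, 5 rose and 3 fell while 11 missed it (median 0.38). Ccr2, a monocyte chemokine receptor, fell by 2.04 (SE 0.17) and F13a1, a coagulation factor of monocytes, by 2.69 (SE 0.47), while Apoe, an apolipoprotein of macrophages, rose by 3.59 (SE 0.44). C1qb, a complement subunit, rose by 2.37 (SE 0.64), a call lost in 7 of 9 runs (largest limma adjusted p 0.188). With an offset of 1 its log2 fold change was 0.85 (limma adjusted p = 0.051). The summed level of these genes lay between 9.14 and 10.95 with MIG-Hhex and between 8.96 and 10.65 with MIG. Mast cells and basophils had 12 measured marker genes, of which 4 rose, 3 fell and 5 missed it (median −0.15). Cpa3, a mast cell protease, fell by 2.19 (SE 0.22) and Cd200r3, a basophil receptor, by 3.62 (SE 0.47). The WT691 and WT703 values of Cd200r3 with MIG-Hhex were identical at −4.53 and may be a floor for this gene. Hdc, which makes histamine, rose by 1.35 (SE 0.22), and Il1rl1, the IL-33 receptor, by 0.71 (SE 0.09), though not without replicate WT703 in the case of Il1rl1 (limma adjusted p = 0.0535). Their summed level lay between 10.44 and 11.1 with MIG-Hhex and between 10.14 and 10.84 with MIG. Without a flow cell term Ccr2 and Apoe remained past the threshold, and the other named genes of these 3 lists did not (limma adjusted p 0.0558 to 0.41). The number of monocyte and macrophage genes that rose was 10 with the replicate block, 1 without a flow cell term and 3 with an offset of 1. It was 2 without replicate WT3, without either WT3 library, without the MIG-Hhex library of WT691 or without the MIG library of WT703. For the progenitor list it was 4 with the block, 0 without a flow cell term and 1 to 3 over the left-out runs, with 1 in the runs lacking replicate WT3, either WT3 library, the MIG-Hhex library of WT691 or the MIG library of WT703. For mast cells and basophils the rises numbered 0 without a flow cell term and 1 to 4 over the left-out runs, with 1 without replicate WT703 and 2 without either of its libraries or the MIG-Hhex library of WT691, and the falls 0 without a flow cell term. How far these cell types bear on the Ms4a values was not tested.

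Among 15 myeloid transcription factors, 8 rose and 1 fell while 6 missed the threshold (median log2 fold change 0.54), against 9.44% higher and 8.52% lower over all genes. The rises numbered 4 without replicate WT703, 5 without the MIG-Hhex library of WT691 and 0 without a flow cell term, where Maf, Cebpe and Cebpd all missed the threshold (limma adjusted p = 0.43, 0.121 and 0.682). Cebpe, a factor of late granulocytes, rose by 1.67 (SE 0.14) and Maf by 1.79 (SE 0.24), and Cebpd fell by 0.85 (SE 0.13), but Cebpd not without replicate WT703 (limma adjusted p = 0.063). Spi1, which encodes PU.1 and was chosen after its value was seen, had a log2 fold change of 0.28 (limma adjusted p = 0.0532, and 0.0197 with the replicate block). In the remaining lists, 8 of 13 neutrophil genes rose, led by Mmp9 (log2 fold change 2.97) and Ngp (2.08), and Mmp8 alone fell (−1.94). Of 9 eosinophil genes 2 rose, Alox15 (log2 fold change 4.80) and Siglecf (1.81), and 0 fell. Of 14 T and NK cell genes only 5 were measured. Of these 4 rose, led by Cd7 (log2 fold change 2.83) and Gata3 (1.36), 0 fell, and Lck did not pass (−0.22). Of 15 stem cell and progenitor genes 0 rose and 3 fell, led by Meis1 (log2 fold change −0.79) and Mllt3 (−0.57). Of 9 erythroid genes 3 rose, led by Hba-a1 (log2 fold change 3.77) and Klf1 (1.21), and 2 fell, Car1 (−1.84) and Tfrc (−0.29). Of 10 megakaryocyte genes 6 rose, led by Cd9 (log2 fold change 1.46) and Gp9 (0.94), and Pf4 fell (−0.94). Leaving out a replicate or a library ended the call of Gp9 in all 9 runs, of Mllt3 and Car1 in 6, of Klf1 and Tfrc in 5, of Gata3 in 4, of Meis1 in 3, of Mmp8 in 2, and of Mmp9 and Siglecf in 1. Without a flow cell term Mmp9, Ngp, Alox15, Siglecf, Hba-a1 and Cd9 remained past the threshold and the others just named did not (limma adjusted p 0.0595 to 0.667). The megakaryocyte rises numbered 2 without replicate WT703 and 3 without the MIG library of WT703 or the MIG-Hhex library of WT691. The erythroid rises numbered 1 in the same 3 runs. The stem cell falls numbered 1 to 2 over the left-out runs, against 5 with the replicate block. Without a flow cell term the rises numbered 2 for neutrophil genes and 1 each for T and NK cell, erythroid and megakaryocyte genes. Of 10 B cell genes, the class in which CD20 is known, 2 were measured, Cd79b (log2 fold change 0.24) and Il7r (−0.58), and neither passed (limma adjusted p = 0.0607 and 0.390).

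**Figure D5:**
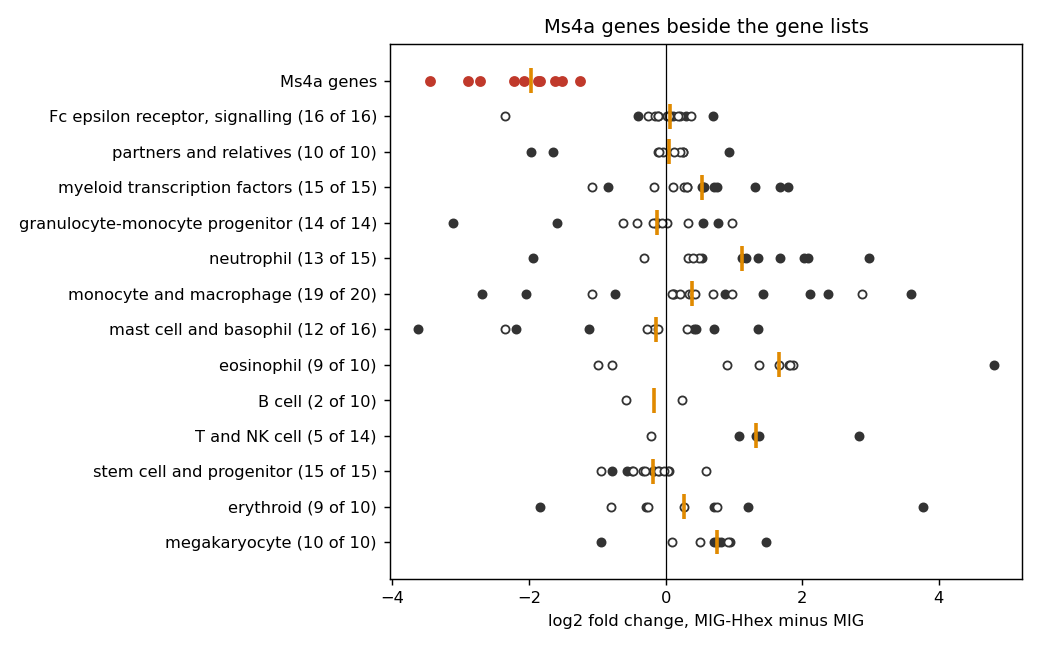
Log2 fold change (MIG-Hhex minus MIG) of each gene in the Ms4a family (red) and in 13 gene lists, with measured and listed numbers in brackets. Filled black points passed the limma threshold and open points did not, red points are filled whatever their call, and orange bars are medians. The Ms4a genes lie between −3.45 and −1.26, while list medians lie between −0.19 and 1.67.

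Genes with the library profile most like each member were looked up by the smallest root-mean-square distance over the 6 libraries, after each profile was centred. The distance is on the log2 scale, and the libraries are the same as those above. Nearest to Ms4a3 were Fam46a, at 0.0758, and Hfe, the haemochromatosis gene, at 0.0777. Nearest to Ms4a2 were Itga1, an integrin chain, at 0.133 and Lmo1 at 0.152, and its nearest fellow member was Ms4a3 at 0.218. Thbd, thrombomodulin, at 0.132, and fibronectin, Fn1, at 0.263 were nearest to Ms4a6d, and both were also nearest to Ms4a6c, at 0.257 and 0.262. Ms4a6c and Ms4a6d lay 0.225 apart. Chil3, a chitinase-like protein, at 0.234 and Met at 0.298 were nearest to Ms4a4b, Fcer1a at 0.487 and Trnp1 at 0.565 to Ms4a4c, and Fcgr4 at 0.788 and Siglece at 0.828 to Ms4a7. For Ms4a4a they were March1 at 0.197 and the neutrophil collagenase Mmp8 at 0.258, for Ms4a6b Fjx1 at 0.259 and Ovgp1 at 0.26, and for Ms4a8a Fn1 at 0.382 and Bco2 at 0.447. Only for Ms4a6c was another Ms4a gene nearer than any named gene outside the family. Far more genes lie outside the family than in it, and the family was picked on these same values, so nothing is read from this.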

How the data were processed

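Messenger RNA libraries made from total RNA, 3 MIG-Hhex and 3 MIG, were sequenced, per the labels. The submitters' processing notes name build mm10 and the tools Subread, featureCounts, edgeR and limma. Their versions and order, and the normalization, are not stated there. The deposited log2 values, 1 per gene and library, appear to be per unit of gene length: over 11700 genes their SD ran from 2.58 to 2.69 between libraries, and from 2.56 to 2.58 once log2 exon length was added. Read counts and depth are unknown, so no count model or counting interval was used.

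The log2 values were fitted with limma 3.58.1 in R 4.3.3, with terms for flow cell and vector and eBayes with a trend. Two-sided p-values received the Benjamini-Hochberg adjustment across the 12161 genes, and 0.05 was the threshold. The fit was tested on simulated data. Genes were matched by Entrez ID to RefSeq genes of GRCm38.p6, the assembly of mm10 (12052 matched); promoters are from RefSeq and transcripts from GENCODE M21, aligned with Biopython 1.88.

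Replicate names come from the sample titles. Deviations from the group means correlated between same-named libraries by 0.742 (WT3), 0.585 (WT691) and 0.656 (WT703), and names were taken to pair them. Differently named libraries were not compared. With WT3 alone on its flow cell, these values cannot show that WT691 and WT703 are paired by name.

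The members and the 13 lists were chosen with earlier results of these data known. All members, every neighbour past the threshold and the nearest on each side, up to 2 rises and 2 falls per list and the 2 genes most like each member are named; others are said to be chosen later. Alternatives were another offset, a filter, no variance trend, quantile normalization, other covariates and left-out libraries.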

Additional observations from a re-analysis of the deposited data

How the results depend on the processing

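Depth is unknown, so what low values can show is limited by the offset of the log2 scale. All 10 Ms4a genes stayed lower with MIG-Hhex under every alternative in which they were fitted. Most of these settings could not change the sign, because each member was lower in all 3 pairs, so nothing is read from it. The replicate block, no flow cell term and no variance trend left the median log2 fold change of the members at −1.975. This median ranged from −2.44 to −1.64 over the 9 runs without a replicate or a library and was −1.36 with an offset of 1. With vector as the single term, and so no flow cell term, the whole table gave 119 higher genes and 98 lower ones, 0 Ms4a genes lower, 2 neighbours higher and 0 lower, and of the list genes 9 were higher and 3 lower. Without a variance trend, 638 genes, 3 Ms4a genes and 1 neighbour were lower. Over the 9 left-out runs, 355 to 835 genes were higher and 270 to 634 lower, fewest without replicate WT703. In the same runs 4 to 8 Ms4a genes and 0 to 1 neighbours were lower, and of the list genes 26 to 40 were higher and 12 to 18 lower. With the replicate block, the pairing of libraries by replicate, 1506 genes were higher and 1473 lower, against 1148 and 1036, and 10 Ms4a genes were lower. Of 59 named genes with a test, 47 passed. Without a flow cell term 14 of these kept their call, and without a variance trend 37 did, the calls lost being those of Cdk2, Hp, Mmp8, C1qb, Klf1, Car1, Tfrc, Gp9, Cd5 and Ccdc86. With the replicate block none of the 47 was lost and Fcer1a, Fcer1g and Spi1 were gained. Quantile normalization changed no call among the 59. Library SDs once log2 exon length was added already lay between 2.56 and 2.58. That setting could therefore change little, and nothing is read from it. The filter on the mean removed Ms4a7 and Ms4a8a among others. The cause of these changes was not tested.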
